A study of Homo sapiens with 2 samples.

Results

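The guanylate-binding proteins GBP1, GBP2, GBP3, GBP4 and GBP5 were followed in single tumour cells exposed to cytokines. They were taken by name, as 5 of the 36601 genes in the deposited count table, and all 5 had a mean level of at least 0.05 UMIs per 10000 UMIs, the limit used for counting genes below. The cells were OVCAR5, an established human ovarian carcinoma line, that carried a reporter sensing interferon gamma (IFNy in the labels, IFN-gamma here). They had grown as tumours in NSG-b2m-/- mice, which lack functional lymphocytes and beta-2-microglobulin but keep myeloid cells, were digested to single cells, and spent 6 h ex vivo with 100 ng/ml IFNy plus 10 ng/ml TNFa, with 10 ng/ml TNFa, or unstimulated. After hashtag staining the samples were pooled and CFP+ cells, described in the labels as bystander tumour cells, were sorted, so every group shares the line, the reporter, the host strain and the sort. A UMI (unique molecular identifier) counts a single captured RNA molecule.

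No label pairs a hashtag with a treatment. The groups used here, named IFN-gamma plus TNF-like, TNF-like and unstimulated-like, were inferred from expression in these same cells, and GBP genes are among the interferon response genes that such an inference can rest on. A gap between the groups in GBP level is therefore a description with no test, and no p-value, SD or fold beyond the measured ratio is attached to it. What can be described is how the 5 paralogs differ from each other, how evenly cells carry them, and how samples vary inside a group. The 3144 kept cells with a clear pair of hashtags fell into 15 hashed samples, 5 per group, and the labels describe a pool of 5 tumours without tying hashed samples to single tumours, so groups may share tumours. The hashed samples held 49 to 630 cells and 582102 to 7324691 UMIs, with a median of 10942 to 12405 UMIs per cell. The groups had 919, 1277 and 948 cells in the order given above. In the labels' terms the cells are ovarian carcinoma. The summed level of epithelial markers was 40.2 to 88.0 UMIs per 10000 over the hashed samples, but single markers differed. KRT18 had 15.1 to 35.1, whereas PAX8 had 0.105 to 0.253, MUC1 0.0154 to 0.223 and CDH1, with a mean below 0.05, 0 to 0.0935. In contrast, 6 of 7 T or NK cell markers and all 3 erythroid markers were at 0. These are human genes, so the values cannot show whether mouse host cells were present.

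GBPs are large GTPases of the dynamin superfamily that interferons, IFN-gamma above all, switch on through factors such as IRF1. They assemble on the membranes of intracellular bacteria and parasites, where they help caspase-4 to sense lipopolysaccharide and help inflammasomes to form. GBP1, GBP2 and GBP5 end in a motif that receives a lipid anchor, GBP3 and GBP4 join coats that GBP1 nucleates, and tumour cells are known to make GBPs when T cells release IFN-gamma nearby.

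All 5 genes lie in 1 cluster on the minus strand of chromosome 1. In GENCODE release 29 on GRCh38, the build named in the submitters' processing notes, the cluster spans 266139 bases. From low to high coordinate, GBP3 (ENSG00000117226) lies at chr1:89006666-89022894, GBP1 (ENSG00000117228) at chr1:89052319-89065360, GBP2 (ENSG00000162645) at chr1:89106132-89150456, GBP4 (ENSG00000162654) at chr1:89181148-89198932 and GBP5 (ENSG00000154451) at chr1:89258950-89272804. RefSeq promoter sequence on GRCh38.p14 (250 bases before to 50 after the start) was at hand for 3 of them, GBP1, GBP3 and GBP4. GBP2 and GBP5 are named only. Each of the 3 promoters held the letters GAAA, any 2 bases, GAAA, a core of the interferon-stimulated response element (ISRE) that IRF family factors bind, searched on both strands. The same letters occur in 1255 of 35116 promoters of that length (3.57%). The windows below are shown because they let the element be compared between the paralogs. They run 5′ to 3′ on the strand of transcription, and the capitals mark the reverse complement of the core.
GBP1, chr1:89065308-89065395, minus strand: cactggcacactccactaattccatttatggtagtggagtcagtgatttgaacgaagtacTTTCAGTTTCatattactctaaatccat
GBP3, chr1:89022837-89022924, minus strand: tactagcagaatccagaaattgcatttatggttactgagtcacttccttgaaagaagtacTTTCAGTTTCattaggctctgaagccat
GBP4, chr1:89198919-89199006, minus strand: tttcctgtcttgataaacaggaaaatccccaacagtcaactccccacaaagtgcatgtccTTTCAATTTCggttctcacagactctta

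Aligned at the element without gaps, GBP1 and GBP3 shared 66 of 88 bases, against 26 for GBP1 and GBP4 and 30 for GBP3 and GBP4. The GBP1 and GBP3 elements had the same letters. Counted from the RefSeq start as base 0, the match lay at -127 to -118 in GBP1, at 2 to 11 in GBP3 and at -4 to 5 in GBP4. GENCODE starts GBP1 further upstream, at 89065360 against 89065208 in RefSeq, so the position in GBP1 depends on the annotation. The kappaB letters GGG, any 2 bases, TTTCC, a core bound by NF-kB and present in 1.91% of promoters, were found in GBP4 alone among the 3, at -45 to -36. The gamma-activated site letters TTCNNNGAA (in 7.66% of promoters) were found in GBP3 alone among the 3, at -15 to -7. The looser form TTNCNNNAA was in GBP1 and GBP3 but is common (33.9% of promoters), and the TTCNNNGAA match in GBP3 overlaps one of its matches. A match is a string of letters and not a measured binding site.

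Levels are summed UMIs per 10000 UMIs of a hashed sample, and their exact 95% Poisson intervals take in counting error alone. Counting is at the 3′ end of transcripts, so levels were not divided by length, and they are compared between samples of the same gene. In the IFN-gamma plus TNF-like hashed samples every GBP lay above all 10 others, and in the TNF-like ones GBP1 to GBP4 lay above all unstimulated-like ones. The summed level of the 5 genes had a median of 71.4 (57.1 to 76.1) in IFN-gamma plus TNF-like, 4.36 (3.40 to 5.06) in TNF-like and 1.52 (1.25 to 1.88) in unstimulated-like hashed samples. No overlap between the IFN-gamma plus TNF-like hashed samples and all others was seen for 5 of 5 members, beside 472 of 9361 measured genes (5.04%), and the gap was at least 2-fold for 5 of 5 members, beside 115 genes (1.23%). Between TNF-like and unstimulated-like hashed samples, 4 of 5 members did not overlap, beside 378 genes (4.04%), and a gap of at least 2-fold was seen for 1 of 5, GBP3, beside 48 genes (0.513%). GBP5 reached the mean of 0.05 (at 0.0966) only through the IFN-gamma plus TNF-like hashed samples, since its highest level elsewhere was 0.0328. The limit thus favoured its count among the 5. Since the groups came from these counts, nothing is read from these shares. With a stricter mitochondrial limit of 10%, which left 661 cells and 9 in the smallest hashed sample, TNF-like lay above unstimulated-like without overlap for 1 member, GBP3, and IFN-gamma plus TNF-like lay above all others for 4, since GBP5 overlapped. With no mitochondrial limit, TNF-like lay above unstimulated-like for 3 members, GBP2, GBP3 and GBP4, and GBP1 overlapped.

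**Figure D1:**
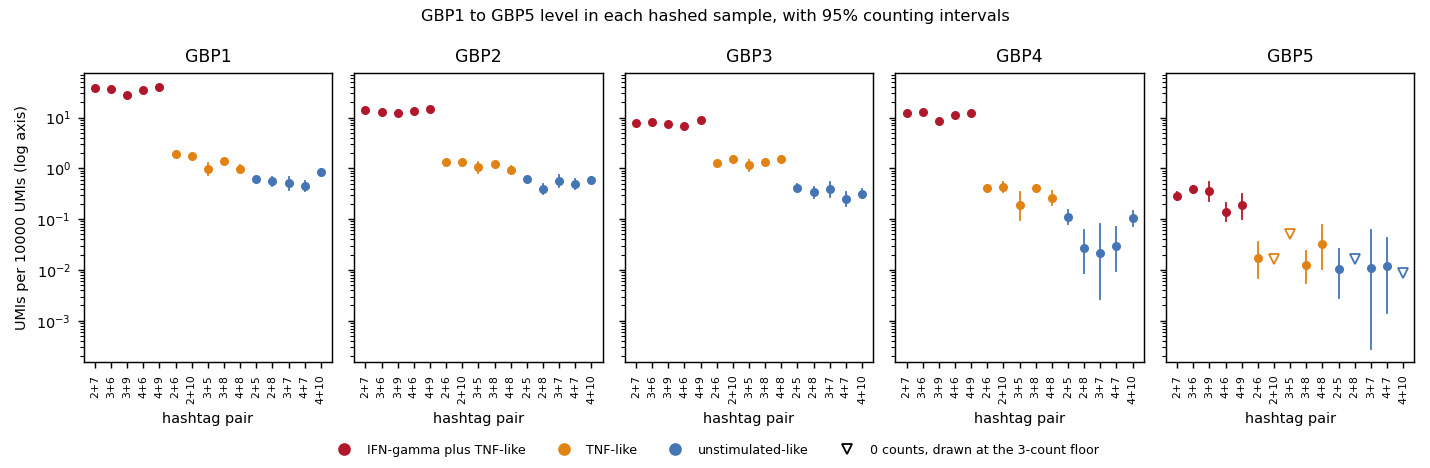
Level of GBP1 to GBP5 (UMIs per 10000 UMIs, log axis) in each of the 15 hashed samples, with 95% counting intervals as bars and the inferred groups as colours; open triangles stand for 0 counts, drawn at 3 counts. The 5 IFN-gamma plus TNF-like hashed samples lie highest in every panel, the lowest TNF-like value of GBP3 is 2.83 times its highest unstimulated-like one, and GBP5 rests on few counts.

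GBP1, the founding member that coats bacteria and bears a farnesyl anchor, had 38.2, 37.0, 28.4, 34.9 and 39.7 UMIs per 10000 in the IFN-gamma plus TNF-like hashed samples HTO2+HTO7, HTO3+HTO6, HTO3+HTO9, HTO4+HTO6 and HTO4+HTO9. In the TNF-like hashed samples HTO2+HTO6, HTO2+HTO10, HTO3+HTO5, HTO3+HTO8 and HTO4+HTO8 it had 1.92, 1.76, 0.979, 1.37 and 0.972, against 0.607, 0.552, 0.518, 0.451 and 0.861 in the unstimulated-like HTO2+HTO5, HTO2+HTO8, HTO3+HTO7, HTO4+HTO7 and HTO4+HTO10. The lower edge of the top group was thus far from the rest, whereas TNF-like and unstimulated-like came close to each other. HTO4+HTO8, the lowest TNF-like one (0.972, interval 0.822 to 1.14), and HTO4+HTO10, the highest unstimulated-like one (0.861, 0.765 to 0.966), had overlapping intervals. With a second hashtag of 10 times the third, the lowest TNF-like value was 0.955 and the highest unstimulated-like one 0.742. The ratio of medians was 27.1 for IFN-gamma plus TNF-like over TNF-like and 2.48 for TNF-like over unstimulated-like.

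GBP2, a geranylgeranylated member that with GBP5 restrains the protease furin, had 13.8, 13.1, 12.2, 13.7 and 14.9 UMIs per 10000 in the IFN-gamma plus TNF-like hashed samples, in the same order. It had 1.35, 1.31, 1.07, 1.22 and 0.939 in the TNF-like hashed samples, against 0.604, 0.391, 0.573, 0.498 and 0.593 in the unstimulated-like ones. The 3 groups were apart, and GBP2 had the smallest spread of the 5 genes within the top group, a ratio of highest to lowest of 1.22. The ratio of medians was 11.3 for IFN-gamma plus TNF-like over TNF-like and 2.13 for TNF-like over unstimulated-like.

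GBP3, which joins the GBP coat on bacteria, had 7.74, 8.24, 7.40, 6.87 and 8.87 UMIs per 10000 in the IFN-gamma plus TNF-like hashed samples. It had 1.27, 1.56, 1.17, 1.35 and 1.51 in the TNF-like hashed samples, against 0.413, 0.338, 0.397, 0.255 and 0.319 in the unstimulated-like ones. Every TNF-like value was at least 2.83 times every unstimulated-like one, the widest such gap among the 5 genes. The ratio of medians was 5.72 for IFN-gamma plus TNF-like over TNF-like, the lowest of the 5, and 4.001 for TNF-like over unstimulated-like.

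GBP4, which helps to bring caspase-4 to coated bacteria, had 12.4, 12.7, 8.76, 11.2 and 12.5 UMIs per 10000 in the IFN-gamma plus TNF-like hashed samples. It had 0.410, 0.436, 0.189, 0.411 and 0.263 in the TNF-like hashed samples, against 0.111, 0.0268, 0.0220, 0.0297 and 0.103 in the unstimulated-like ones. The unstimulated-like values were uneven. HTO2+HTO5 and HTO4+HTO10 had 43 and 35 counts, and the other 3 had 2 to 5 counts. With a second hashtag of 10 times the third, the highest unstimulated-like value was 0.0821, and the part of mixed hashtags was not tested. The lowest TNF-like value rested on 11 counts (interval 0.0943 to 0.338) and its interval overlapped that of HTO2+HTO5 (0.0803 to 0.150). The lowest IFN-gamma plus TNF-like value was 20.1 times the highest of the others, the largest such gap of the 5 genes. This gap ranked 8 of 9361 genes, beside 15, 22, 40 and 43 for GBP1, GBP2, GBP3 and GBP5. Since the groups came from these counts, nothing is read from the ranks. The ratio of medians was 30.3 for IFN-gamma plus TNF-like over TNF-like and 13.8 for TNF-like over unstimulated-like, the last on few counts.

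GBP5, which promotes NLRP3 inflammasome assembly, had 122, 145, 23, 26 and 14 counts in the IFN-gamma plus TNF-like hashed samples, or 0.282, 0.389, 0.355, 0.139 and 0.187 UMIs per 10000. It had 7, 0, 0, 9 and 5 counts in the TNF-like hashed samples, against 4, 0, 1, 2 and 0 in the unstimulated-like ones. The top group was apart by 4.25-fold, and the lower pair of groups overlapped at this depth. A count of 0 in HTO3+HTO5, the smallest hashed sample, has an interval that reaches 0.0634. RefSeq places the 3′ end of GBP5 2761 bases beyond the end in GENCODE release 29. The sources used here do not name the annotation behind the deposited counts, and whether 3′ reads of GBP5 were missed was not tested.

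Inside the IFN-gamma plus TNF-like group HTO3+HTO9 stood lowest for GBP1 and GBP4, with intervals of 27.1 to 29.7 and 8.05 to 9.51 that lay below those of the other 4 hashed samples. For GBP2 it was also lowest, but its interval (11.3 to 13.1) overlapped that of HTO3+HTO6 (12.7 to 13.5) and not those of the other 3. For GBP3 HTO4+HTO6 was lowest (6.87, 6.50 to 7.25), and for GBP5 HTO4+HTO6 and HTO4+HTO9 had the lowest values. The paralogs thus did not order these 5 hashed samples alike. HTO3+HTO9 had only 53 cells, and its part in these differences was not tested.

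**Figure D2:**
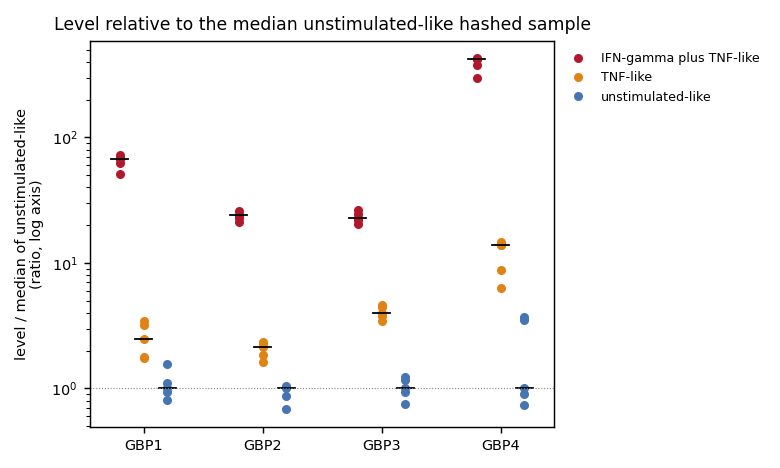
Level of GBP1 to GBP4 in each hashed sample divided by the median of the unstimulated-like hashed samples (ratio, log axis); bars are group medians. The medians of IFN-gamma plus TNF-like are 67.0, 24.0, 22.9 and 418 for GBP1, GBP2, GBP3 and GBP4, and those of TNF-like are 2.48, 2.13, 4.001 and 13.8, so GBP3 has the lowest median of the 4 in IFN-gamma plus TNF-like and the second highest in TNF-like.

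The makeup of the GBP pool differed between the groups as well. GBP1 gave a median of 52.2% of the GBP1 to GBP5 UMIs in IFN-gamma plus TNF-like hashed samples (49.7% to 52.8%), 31.4% in TNF-like ones (26.1% to 38.6%) and 36.2% in unstimulated-like ones (34.1% to 45.9%). GBP3 gave 11.5% (10.3% to 13.0%), 31.0% (25.6% to 40.6%) and 23.7% (17.0% to 26.1%) in the same groups. GBP3 had a higher share in TNF-like hashed samples than in IFN-gamma plus TNF-like ones without overlap, and its TNF-like range met the unstimulated-like one at its edge. GBP2 gave 19.5% (18.3% to 21.3%), 27.1% (25.3% to 31.3%) and 34.6% (29.9% to 40.0%). GBP4 gave 16.8% (15.3% to 17.7%), 8.27% (5.56% to 9.42%) and 2.38% (1.45% to 6.36%), a share that was ordered like the summed level with an overlap between TNF-like and unstimulated-like. The TNF-like pool was therefore no scaled-down copy of the IFN-gamma plus TNF-like one: GBP3 and GBP2 took more of it, and GBP1 and GBP4 less.

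The ratios between paralogs differed as well. GBP4 UMIs per GBP1 UMI were 0.308 to 0.342 in IFN-gamma plus TNF-like, 0.193 to 0.300 in TNF-like and 0.0426 to 0.183 in unstimulated-like hashed samples. GBP3 UMIs per GBP1 UMI were 0.197 to 0.261, 0.663 to 1.55 and 0.370 to 0.766. Neither low group overlapped the top group in these 2 ratios. The pool has no cell type that should lack GBPs, so no background share of cells with free RNA was measured, and the part of free RNA in these values was not tested.

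**Figure D3:**
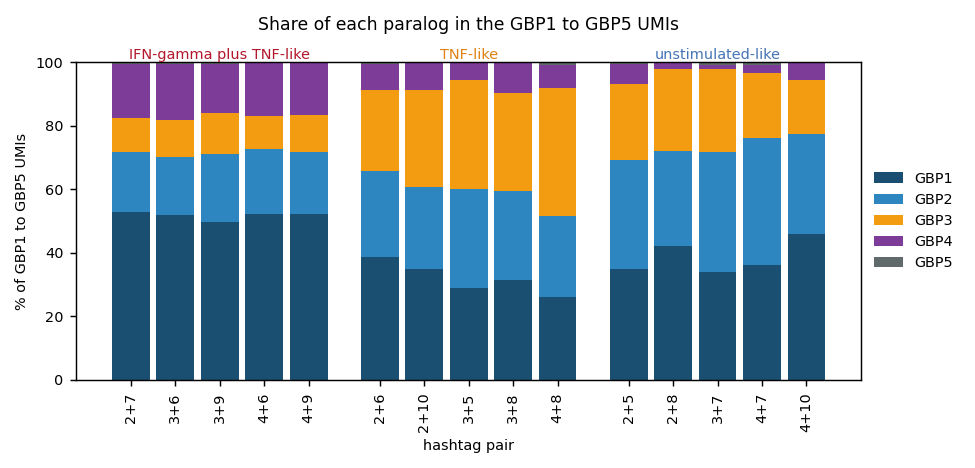
Share (%) of each paralog in the summed GBP1 to GBP5 UMIs of each hashed sample, stacked to 100. GBP1 takes 49.7% to 52.8% in IFN-gamma plus TNF-like hashed samples, GBP3 takes 25.6% to 40.6% in TNF-like ones, and GBP4 takes 1.45% to 6.36% in unstimulated-like ones.

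Shares of cells with a UMI were taken after each cell was thinned to 5000 UMIs. This left 855 IFN-gamma plus TNF-like, 1181 TNF-like and 892 unstimulated-like cells. GBP1 was seen in a median of 98.6% of IFN-gamma plus TNF-like cells, 32.5% of TNF-like cells and 19.7% of unstimulated-like cells over hashed samples (98.8%, 52.7% and 40.0% before thinning). GBP2 was seen in 95.9%, 40.0% and 24.2% (96.9%, 62.2% and 41.2% before thinning). GBP3 was seen in 87.8%, 42.9% and 13.6% (94.2%, 60.9% and 32.6% before thinning). The order of the groups was the same for these 3 genes at both depths. GBP4 was seen in 91.6%, 11.7% and 1.46% (95.3%, 19.8% and 3.65% before thinning). GBP5 was seen in 10.4%, 0.509% and 0% (21.3%, 1.43% and 0.329% before thinning). For GBP1 to GBP4 the IFN-gamma plus TNF-like values were near the ceiling of this measure.

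Most cells of the top group held several paralogs. Since GBP1 to GBP4 were each near the ceiling there, this follows from single genes and is no sign of joint carriage. At least 3 of the 5 genes were seen in a median of 95.1% of IFN-gamma plus TNF-like cells (93.2% to 96.2%), 16.2% of TNF-like cells (8.89% to 18.3%) and 0.730% of unstimulated-like cells (0% to 2.59%). Before thinning these medians were 97.4%, 34.4% and 9.21%. No GBP UMI at all was found in 8 of 855 IFN-gamma plus TNF-like cells (0.936%), 296 of 1181 TNF-like cells (25.1%) and 466 of 892 unstimulated-like cells (52.2%).

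**Figure D4:**
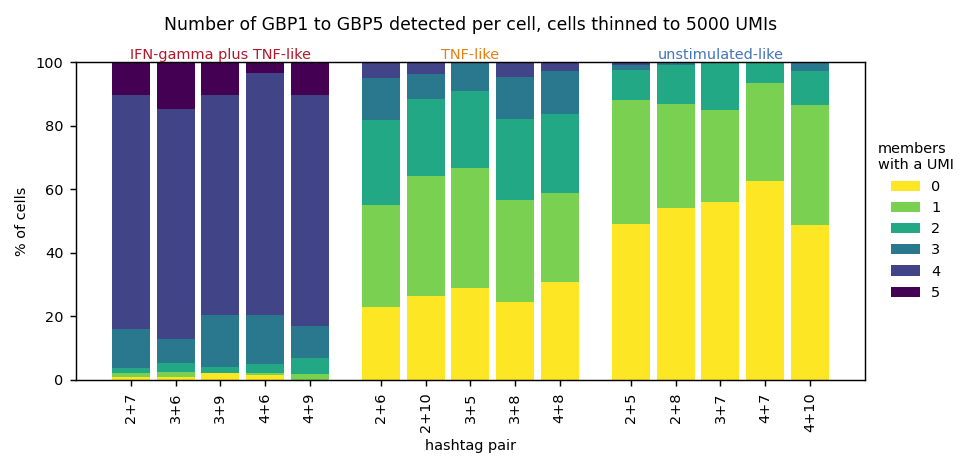
Share of cells (%) with UMIs of 0 to 5 of the GBP1 to GBP5 genes in each hashed sample, cells thinned to 5000 UMIs. Most IFN-gamma plus TNF-like cells hold 4 members (69.4% to 76.2%), most TNF-like cells hold 0 to 2, and 48.9% to 62.7% of unstimulated-like cells hold 0.

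Summed over the 5 genes, the median thinned cell held 36 GBP UMIs in IFN-gamma plus TNF-like (5th to 95th percentile 8 to 63), 1 in TNF-like (0 to 7) and 0 in unstimulated-like (0 to 3). The tails crossed. A sum of at most 5 UMIs was found in 35 of the 855 IFN-gamma plus TNF-like cells (4.09%), spread over all 5 hashed samples. In these 35 cells IRF1, a transcription factor that drives GBP genes, stood at 17.0 UMIs per 10000, against 41.4 in the other 820 cells. The chemokine CXCL10 stood at 9.26 against 93.0, and the NF-kB inhibitor NFKBIA, a target of TNF signalling, at 7.89 against 18.6. In all thinned TNF-like cells IRF1, CXCL10 and NFKBIA stood at 3.41, 0.540 and 14.9, so the first 2 were lower there and NFKBIA higher. The 35 cells were lower than the other 820 in genes of both responses. They were picked by their GBP sum, so this describes the tail and is not tested. These cells also had fewer UMIs before thinning (median 9722 against 12007) and a higher mitochondrial share (15.04% against 12.8%), whose part in the low values was not tested.

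More than 5 GBP UMIs were found in 114 of the 1181 TNF-like cells (9.65%). These held 39.7% of the GBP1 UMIs and 50.6% of the GBP4 UMIs of the thinned TNF-like cells, but 30.03% of GBP2 and 34.4% of GBP3. IRF1 stood at 6.84 UMIs per 10000 in them, against 3.05 in the other 1067 cells, and SOD2, a mitochondrial superoxide dismutase induced by NF-kB, at 29.6 against 14.6. CXCL10 stood at 2.67 against 0.313 and NFKBIA at 17.8 against 14.6. The cells were split by their GBP sum, so these values describe the tail and are not tested. More than 5 GBP UMIs were found in 7 of the 892 unstimulated-like cells (0.785%). The third-ranked hashtag of these cells took a median of 8.00% of hashtag counts, against 0.506% in the other 885 cells, and the part of this in their GBP counts was not tested. HTO2+HTO5 had 2 of these 7 cells, HTO2+HTO8 had 1 and HTO4+HTO10 had 4. The 7 cells held 21.5% of the GBP1 UMIs and 30% of the GBP4 UMIs of the thinned unstimulated-like cells.

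Within single hashed samples of the top group, cells with more UMIs of 1 gene among GBP1 to GBP4 tended to have more of the others among them. The values are Spearman correlations over cells of hashed samples with at least 50 thinned cells, which share a library, and they carry no p. GBP1 and GBP2 had a median rho of 0.532 over 4 IFN-gamma plus TNF-like hashed samples (0.467 to 0.620), 0.243 over 4 TNF-like ones (0.167 to 0.274) and 0.106 over 5 unstimulated-like ones (-0.00461 to 0.143). GBP1 and GBP4 had 0.489 and 0.209 in the first pair of groups, and GBP1 and GBP3 had 0.429 and 0.285. Sparse counts lower rho, so the weak values in unstimulated-like cells are no finding, and nothing is read from the order of rho between groups. GBP5, at its low counts, had a median rho in the top group of only 0.0919 with GBP1. With GBP2, GBP3 and GBP4 it had 0.0237, 0.0456 and 0.126, and the values with GBP2 and GBP3 reached below 0. The summed GBP count had a rho with the UMI total of the cell of -0.197 to 0.0863 over the 15 hashed samples. Its rho with the mitochondrial share of the cell was below 0 in all 5 IFN-gamma plus TNF-like hashed samples (-0.257 to -0.0491), and lay between -0.208 and 0.0571 in TNF-like ones and between -0.0723 and 0.0236 in unstimulated-like ones. The part of this share in the correlations was not tested.

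**Figure D5:**
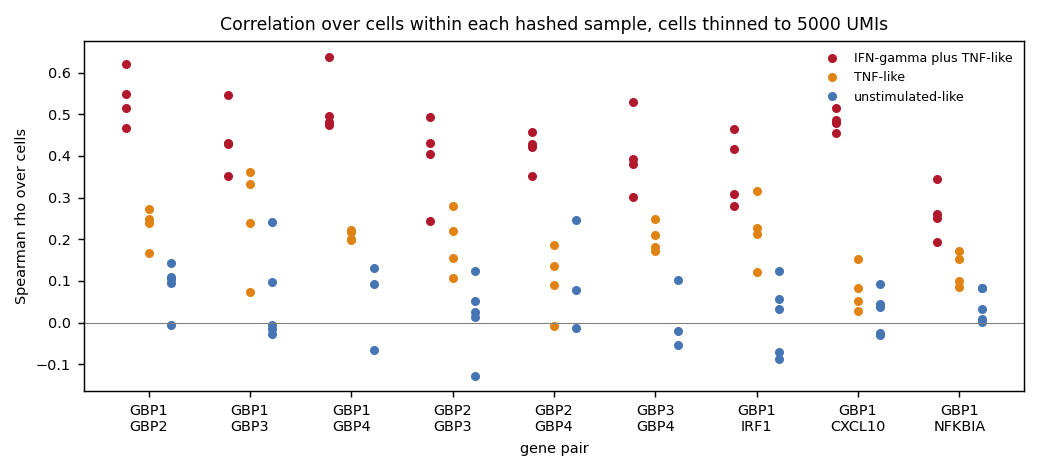
Spearman rho over cells of each hashed sample (points, cells thinned to 5000 UMIs) for pairs of GBP genes and for GBP1 with IRF1, CXCL10 and NFKBIA. In IFN-gamma plus TNF-like hashed samples GBP1 with GBP2 ranges from 0.467 to 0.620 and GBP1 with NFKBIA from 0.192 to 0.344; for these 2 pairs all values of the other groups, with sparser counts, are lower, while for GBP1 with GBP3 or IRF1 the TNF-like values overlap them.

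Among response genes, GBP1 had a median rho in IFN-gamma plus TNF-like cells of 0.482 with CXCL10, 0.363 with IRF1 and 0.256 with NFKBIA. These genes differ in level and sparse counts lower rho, so nothing is read from their order. Ranked over 2877 genes by the median rho with the summed GBP count in the 4 large IFN-gamma plus TNF-like hashed samples, the first 10 genes were SOD2 (0.565), CXCL11 (0.562), CXCL10 (0.542), IDO1 (0.509), NINJ1 (0.483), WARS (0.483), PARP14 (0.465), ICAM1 (0.452), TNFAIP2 (0.449) and OPTN (0.444). The same limit holds for this ranking, in which the ranges of SOD2 (0.483 to 0.607) and ICAM1 (0.302 to 0.523) overlapped. CXCL10 and CXCL11 are T cell chemokines, IDO1 and WARS use tryptophan, ICAM1 is an adhesion molecule and NINJ1 takes part in membrane rupture. Ranked instead over the 15 hashed samples, by Pearson's r on log2 of the level plus 0.05, the first 10 were APOL6 (0.997), NUB1 (0.995), TAP1 (0.994), IRF1 (0.994), SLFN12 (0.993), SAMD9L (0.992), HLA-E (0.991), PARP14 (0.991), XRN1 (0.9896) and CASP8 (0.9896). These 15 points fall into the 3 groups, so r mostly ranks how a gene is spaced between groups and is no evidence of a relation. PARP14, an ADP-ribosyltransferase, was the 1 gene in both rankings. Like GBP1 to GBP4, the peptide transporter TAP1 had separate ranges, at 3.90 to 4.76, 0.292 to 0.501 and 0.182 to 0.242 UMIs per 10000 in IFN-gamma plus TNF-like, TNF-like and unstimulated-like hashed samples. This ranking favours such ranges, and APOL6, NUB1 and HLA-E, among others of the 10, had them as well. For SAMD9L and PARP14 the TNF-like and unstimulated-like ranges overlapped.

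The other genes of the pathway were read from lists with the same rule of no overlap, beside 5.04% and 4.04% of all measured genes in the 2 comparisons. Over all measured genes the median log2 ratio of group medians (0.05 added to each) was -0.14 for IFN-gamma plus TNF-like over TNF-like and -0.05 for TNF-like over unstimulated-like, and over the 5 GBPs it was 3.44 and 1.24. Of 13 measured genes of IFN-gamma signalling, 10 lay above all others in IFN-gamma plus TNF-like hashed samples and 6 lay above unstimulated-like in TNF-like ones, with median log2 ratios of 1.27 and 0.46 in the same 2 comparisons. IRF1 stood at 36.6 to 42.6, 1.84 to 4.01 and 0.738 to 1.08 UMIs per 10000 in the 3 groups, so its TNF-like values were apart from the unstimulated-like ones. JAK2, a kinase bound to the receptor of IFN-gamma, stood at 0.401 to 0.743, 0.0172 to 0.0657 and 0.0375 to 0.0678. Of 14 measured genes of TNF and NF-kB signalling, 5 lay above all others in IFN-gamma plus TNF-like hashed samples and 9 lay above unstimulated-like in TNF-like ones, 6 of them by at least 2-fold, with median log2 ratios of 0.09 and 1.16. NFKBIA stood at 16.6 to 20.1, 10.5 to 15.9 and 1.12 to 1.47, so its step between the first pair of groups was small beside those of the GBPs.

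Genes that act with GBPs had smaller ratios, with medians of 0.42 and 0.20 on the log2 scale. Of 8 measured of 12, 4 lay above all others in IFN-gamma plus TNF-like hashed samples: CASP1, the caspase of canonical inflammasomes, CASP4, the lipopolysaccharide sensor, GSDMD, the pore former that both cut, and APOL3, which permeabilises bacteria that GBP1 has coated. The gap was at least 2-fold for 1 of these 4, APOL3. CASP1 and APOL3 owed their mean of at least 0.05 to the top group, so the limit favoured their count. CASP1 stood at 0.0617 to 0.177 there, at most 0.0423 in TNF-like and at most 0.0265 in unstimulated-like ones. APOL3 stood at 0.277 to 0.708, at most 0.0657 and at most 0.0258. CASP4 stood at 1.78 to 2.31, 0.768 to 1.00 and 0.529 to 0.719 UMIs per 10000 in IFN-gamma plus TNF-like, TNF-like and unstimulated-like hashed samples. GSDMD stood at 1.03 to 1.15, 0.429 to 0.709 and 0.474 to 0.705. LGALS3, a galectin that marks broken vacuoles, lay below all others (as did 640 of 9361 measured genes, 6.84%), at 18.7 to 24.2, 24.8 to 33.9 and 31.7 to 38.7. The inflammasome sensors AIM2 and NLRP3 were below the mean of 0.05, at no more than 0.0134 in any hashed sample. GBP1, GBP2 and GBP5 get their lipid anchor by prenylation. Of the 6 genes listed for prenylation and the processing that follows it, 0 lay above all others in the top group (median log2 ratios 0.01 and -0.17). Of 9 measured dynamin superfamily relatives, 0 lay above all others either (-0.07 and -0.18), and the interferon-induced GTPase MX1 overlapped between groups at 1.59 to 3.90, 0.326 to 2.45 and 0.430 to 2.00. Of 5 reference genes, among them ACTB and GAPDH, 0 lay above all others and the ribosomal protein gene RPLP0 lay below, with list medians of -0.09 and -0.10.

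The neighbour GBP7 stood at 0.663 to 0.961 UMIs per 10000 in IFN-gamma plus TNF-like hashed samples, at most 0.0369 in TNF-like and at most 0.0119 in unstimulated-like ones. GBP7 is uncertain, since its exons share 621 bases with GBP2 and 31.8% of the 50-base words in the last 1000 bases of its coding transcripts also occur in GBP2. GBP6 had 9 counts in IFN-gamma plus TNF-like cells and 0 in the others. The 5 members are easier to tell apart at their 3′ ends: such words shared with another GBP made up 0% for GBP1, GBP4 and GBP5, 2.31% for GBP2 and 4.08% for GBP3, the last 2 with GBP1.

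Markers of the tumour cells also differed between the groups. The summed level of 9 epithelial markers was 40.2 to 47.7 UMIs per 10000 in IFN-gamma plus TNF-like, 45.1 to 65.7 in TNF-like and 72.3 to 88.0 in unstimulated-like hashed samples, with 3 of 8 measured markers, KRT7, KRT19 and CLDN4, below all others in the first group, beside 6.84% of measured genes. Between TNF-like and unstimulated-like 3 of 8, KRT8, KRT18 and CLDN4, were lower without overlap, beside 383 of 9361 measured genes (4.09%). EPCAM overlapped at 3.87 to 4.61, 2.92 to 4.41 and 3.92 to 4.71. Summed myeloid markers were at 0.381 to 0.539, 0.292 to 0.599 and 0.364 to 0.593, endothelial markers at 0.440 to 0.555, 0.447 to 0.584 and 0.434 to 0.617, fibroblast markers at no more than 0.0519 and B cell markers at no more than 0.0107. Single markers of a list differed, also among the epithelial ones, where CDH1 was at 0 to 0.0935. The myeloid marker FCGR3A, the endothelial marker KDR and the B cell marker CD79B were at 0. The myeloid markers CD68 (0.206 to 0.398) and LYZ (0.0515 to 0.202) and the endothelial marker EGFL7 (0.402 to 0.595) were found in every hashed sample. All these lists hold human genes, so they cannot show whether mouse host cells were present. Median mitochondrial shares were 12.2% to 13.6%, 12.2% to 13.8% and 12.9% to 14.7%. The part of the epithelial difference in the GBP values was not tested.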

How the data were processed

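The authors deposited a matrix of unnormalized UMI counts (genes and hashtags by cell barcode) from 1 pooled 10x 3′ gene expression library and its hashtag library of 5267 shared barcodes. Per the file headers Cell Ranger 5.0.1 wrote it. The submitters' processing notes list Cell Ranger 2.1.1 and GRCh38, a mismatch that was not resolved. UMIs collapse PCR copies.

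Of 5269 barcodes, 3538 with at least 1000 genes and at most 20% mitochondrial UMIs were kept. A cell was given to its top pair of hashtags if the count of the second reached 10 and was no less than 3 times the third (3144 cells, 88.9%); this left out many droplets with tags of several samples, but not all (some kept cells had a raised share of a further hashtag). Doublets within a hashed sample were not sought. Pairs were joined into groups by a map inferred earlier from these counts, and the members, lists and rules were chosen with earlier results of these data known. Because cells of 1 library are no replicates, no test was run.

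Levels have exact Poisson intervals and shares exact binomial ones (95%). Genes counted had a mean level of at least 0.05. Cells were thinned to 5000 UMIs for shares and correlations. Genes named beyond the members and lists are the first 10 by Pearson's r and the first 10 by median within-sample rho, the last over genes whose mean reached 0.5. The planned 5 hashed samples for rho came to 4, since HTO3+HTO9 had 49 thinned cells. Scripts used Python 3.11.15, numpy 2.4.6 and scipy 1.17.1 and were tested on simulated data. Alternatives were the filters on cells, the hashtag rule, the total, the limit on low genes, the thinning depth and leaving out each hashed sample.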

Additional observations from a re-analysis of the deposited data

Results flagged for a closer look

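Barcodes outside the hashed samples also held GBP UMIs. The 394 kept cells without a clear pair of hashtags had a summed GBP1 to GBP5 level of 20.6 UMIs per 10000 (interval 20.3 to 21.0), against 22.8 in all kept cells. The 1731 barcodes removed by the filters had 12.03 (11.8 to 12.2). Both stand above the limit that a count of 0 allows (3 counts, 0.00511 and 0.00310 per 10000). In removed barcodes with a clear pair GBP1 had 14.1 to 20.8 UMIs per 10000 in the IFN-gamma plus TNF-like pairs, 0.217 to 0.895 in the TNF-like pairs and 0.341 to 0.742 in the unstimulated-like pairs, so the last 2 groups overlapped there. No hashed sample stood out from its group of 5 by the Dixon criterion for a level, a share or the summed level of these genes.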

How the results depend on the processing

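No paired analysis was possible because no label ties hashed samples to the 5 pooled tumours or to replicate numbers, and no test was run. Values under the alternatives were compared with the main ones, and the order of the groups was not checked for each result. The GBP5 medians of TNF-like and unstimulated-like, 0.0123 and 0.0103 in the main setting, were both 0 at a mitochondrial limit of 10%. With a mitochondrial limit of 10% (661 cells, the smallest hashed sample having 9), 1 member (GBP3) in place of 4 had TNF-like above unstimulated-like, 4 in place of 5 had IFN-gamma plus TNF-like above all others, the genes without overlap were 226 (IFN-gamma plus TNF-like above all others), 172 (TNF-like above unstimulated-like) and 70 (at least 2-fold, first comparison), and the GBP4 share in unstimulated-like was 5.00%. No mitochondrial limit gave 3 members with TNF-like above unstimulated-like. A second hashtag of 10 times the third, or leaving out hashed samples under 100 cells, gave 2 members with TNF-like at least 2 times unstimulated-like. Leaving out those small samples also gave 650 and 102 genes for the TNF-like comparison. Leaving mitochondrial UMIs out of the total gave a summed level of 82.3 in IFN-gamma plus TNF-like. A mean of at least 0.5 gave 231, 206, 59 and 27 genes. Thinning to 2500 UMIs gave GBP1 in 97.3%, 23.6% and 11.7% of cells, GBP4 in 86.9% and 6.12% (first pair of groups), at least 3 members in 89.4% and 6.12%, and a GBP1 and GBP2 rho of 0.418 and 0.147. Thinning to 8000 gave GBP1 in 47.5% (TNF-like) and 33.6% (unstimulated-like), GBP4 in 95.4%, 15.8% and 3.54%, and at least 3 members in 97.6%, 23.8% and 4.25%. Without thinning, GBP1 was in 52.7% (TNF-like) and 40.0% (unstimulated-like), GBP4 in 95.3%, 19.8% and 3.65%, at least 3 members in 97.4%, 34.4% and 9.21%, and rho was 0.633 and 0.313. With Spearman's rho over hashed samples 3 of the 10 most alike genes remained.

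Leaving out each hashed sample in turn gave summed medians of 69.1 to 71.9, 4.04 to 4.66 and 1.41 to 1.63. The members without overlap stayed at 5 and 4, and at 1 to 2 for the 2-fold step to TNF-like. The genes were 479 to 559, 376 to 566, 115 to 144 and 47 to 77.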
